A study of Mus musculus with 16 samples.

Results

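The serum amyloid genes described here are Saa1, Saa2, Saa3 and Saa4, which encode the serum amyloid A proteins, and Apcs, which encodes serum amyloid P. These 5 genes were taken from the 18193 genes with a symbol of their own on the array, and all 7 probe sets annotated to them are reported. The members were chosen on measured values, since the differences of Saa1, Saa2 and Apcs between media in wild-type livers and between genotypes were already known from these arrays. Those differences are therefore given as descriptions without a p-value. Tests are given for polysome against unfractionated RNA and for the effect of methionine in knockout livers, whose arrays did not enter the wild-type comparison between media, although they did enter the genotype comparison.

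Gcn2, encoded by Eif2ak4, is a kinase that is activated by uncharged tRNA and phosphorylates the translation factor eIF2. Livers came from Gcn2+/+ mice (wild-type) and from their Gcn2-/- littermates, which lack the gene in the whole body (knockout), at 3-6 months of age. Each liver was perfused in a single pass with a medium that held all amino acids or with the same kind of medium without methionine, so the livers were studied outside the circulation and every group, controls included, was perfused. Each liver's detergent-treated supernatant gave an RNA sample ahead of the sucrose gradient (unfractionated RNA) and another from the gradient's heavy part, which holds the polysomes, mRNAs bound by several ribosomes. The 8 groups of genotype, medium and RNA fraction held 2 arrays each, and each array measured an RNA pool of 2 livers. Precision is limited by this number of arrays, since a group's spread is that between 2 pools, and in whole liver RNA fewer cells of a type and less RNA per cell cannot be told apart.

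Serum amyloid A proteins are small apolipoproteins of high-density lipoprotein, and Saa1 and Saa2 are the major acute phase proteins of the mouse. In hepatocytes their genes are switched on by interleukin-1, interleukin-6 and tumour necrosis factor, through C/EBP, STAT3 and NF-kB. Saa3 is induced in macrophages and other cells outside the hepatocyte as well, and Saa4 is expressed constitutively in liver. Serum amyloid P is a pentraxin that binds amyloid fibrils, and in the mouse it is an acute phase protein made by hepatocytes.

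The promoters of Saa1, Saa2 and Apcs are shown because these genes had the widest ranges of signal over the arrays. All 5 members were found in the RefSeq promoter table (GRCm38.p6), which holds 250 bases before and 50 after each start. Saa1 (chr7:46740497-46743181, minus strand) and Saa2 (chr7:46751833-46754313, plus strand) point away from each other, with their outermost annotated starts 8652 bases apart, in a cluster that also holds Saa3, Saa4, the pseudogene Saa-ps and the lncRNA gene Gm31882 within 42316 bases. Apcs lies at chr1:172893961-172895054 on the minus strand. The promoter table places the Saa1 and Saa3 windows on other starts, inside the annotated genes, and motif distances are counted from the start of each window. Sequences run 5′ to 3′ on the strand of the gene, and capitals mark a match to the C/EBP motif TTGCNCAA (Saa1 and Saa2) or to the STAT motif TTCNNNGAA (Apcs).
Saa1 promoter, chr7:46742931-46743230, minus strand: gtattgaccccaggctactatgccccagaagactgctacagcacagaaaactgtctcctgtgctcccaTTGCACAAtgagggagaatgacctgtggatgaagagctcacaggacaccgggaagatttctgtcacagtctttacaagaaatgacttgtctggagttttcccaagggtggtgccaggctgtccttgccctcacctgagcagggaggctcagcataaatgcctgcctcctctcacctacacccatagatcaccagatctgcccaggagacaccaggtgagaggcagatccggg
Saa2 promoter, chr7:46751583-46751882, plus strand: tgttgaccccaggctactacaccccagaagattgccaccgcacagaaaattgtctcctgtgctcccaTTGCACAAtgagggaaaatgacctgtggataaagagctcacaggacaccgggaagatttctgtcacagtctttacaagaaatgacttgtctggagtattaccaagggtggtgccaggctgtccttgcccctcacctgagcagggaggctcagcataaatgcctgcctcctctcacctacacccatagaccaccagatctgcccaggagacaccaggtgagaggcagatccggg
Apcs promoter, chr1:172895005-172895304, minus strand: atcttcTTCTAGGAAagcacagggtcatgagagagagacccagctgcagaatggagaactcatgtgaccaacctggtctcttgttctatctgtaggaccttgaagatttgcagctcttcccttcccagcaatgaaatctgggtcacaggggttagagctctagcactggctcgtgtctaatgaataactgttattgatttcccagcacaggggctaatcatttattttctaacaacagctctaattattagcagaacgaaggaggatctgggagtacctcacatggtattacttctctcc
The Saa1 and Saa2 windows were identical in 95.3% of 301 aligned columns, with 12 mismatched and 2 gapped columns, and the next closest pair, Saa1 and Saa3, in 50.9%. The C/EBP motif, searched on both strands, began 182 bases before the start in Saa1 and 183 bases before it in Saa2, and a minus-strand match began 52 bases before the start of Saa4. It was found in 3 of the 5 members and in 2.94% of 32851 promoters of the same length. The STAT motif was found in Apcs alone among the members, 244 bases before its start, and in 8.3% of all promoters. A match to the NF-kB motif GGNNTTTCC was found in Saa3 alone among the members and in 5.82% of all promoters, and the TATA motif TATAAA, found in 13.62% of all, was in none of the 5 windows. Each of the 5 windows held 1 match, so no matches overlapped, and a match does not show that a factor was bound.

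Saa1 and Saa2 are so alike that their probe sets cannot be read as separate genes. Of the Saa1 probe sets, 1450788_at carries a Saa1 accession, whereas 1419075_s_at carries an accession that belongs to Saa2 in the RefSeq table, so its symbol is in conflict. The only Saa2 probe set, 1449326_x_at, is of the kind that can bind related transcripts. Saa4 was measured by 1419318_at and 1419319_at, Saa3 by 1450826_a_at and Apcs by 1419059_at. All 7 probe sets passed the filter that left out the dimmest 40%. Saa3 had a signal between 82.5 and 428 in all arrays, with a mean at percentile 79.9 of all probe sets. Signals are linear Affymetrix values that had been scaled to 1 trimmed mean in each array, and levels of different probe sets are not compared.

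Across the 16 arrays the median signal ran from 18.2 to 27.7, 26.9% to 28.5% of probe sets reached 80, and replicates correlated at 0.958 to 0.970 over all probe sets. The 3′ to 5′ ratio of the Gapdh control ran from 0.783 to 0.94. Eif2ak4 had a signal of 62.9 to 104 in the 8 wild-type arrays and of 21.2 to 52.9 in the 8 knockout arrays, lower in every knockout array. The position of its probes within or outside the deleted part was not analysed here, so this check is limited. Hepatocyte markers were high everywhere, with Alb, Ttr, Apoa1, Apoc3 and Tat at or above 4359 in all arrays. Wild-type pool 2 without methionine stood apart for the genes described here. Its values were the highest of all pools in both fractions for Saa1, Saa2, Saa3 and Apcs, so several wild-type results are also given without it.

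Saa2 had the widest range of the members, 128.6-fold over the unfractionated arrays. In wild-type unfractionated RNA its signal was 195 and 646 with methionine, and 2716 and 15162 without methionine. In knockout unfractionated RNA it was 118 and 136 with methionine, and 204 and 297 without. The wild-type arrays without methionine lay above all others and the knockout arrays with methionine below all others, while the wild-type arrays with methionine and the knockout arrays without methionine overlapped. Polysome RNA gave the same order of group means, with 264 and 710.4 in wild-type livers with methionine, 3290.1 and 13185 without, 159.7 and 112 in knockout livers with methionine and 214 and 462 without. Without methionine the wild-type mean was 21.2 times that with methionine in unfractionated RNA and 16.9 times in polysome RNA, as group means 421 ± 319 and 8939 ± 8801, and 487 ± 316 and 8238 ± 6997 (SD, n = 2 each). On the log2 scale (after adding 16 to each signal, which shrinks the differences of dim probe sets) these differences were 4.10 ± 0.69 and 3.87 ± 0.69 (SE of the fit). Without wild-type pool 2 lacking methionine they were 2.87 and 2.88.

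**Figure D1:**
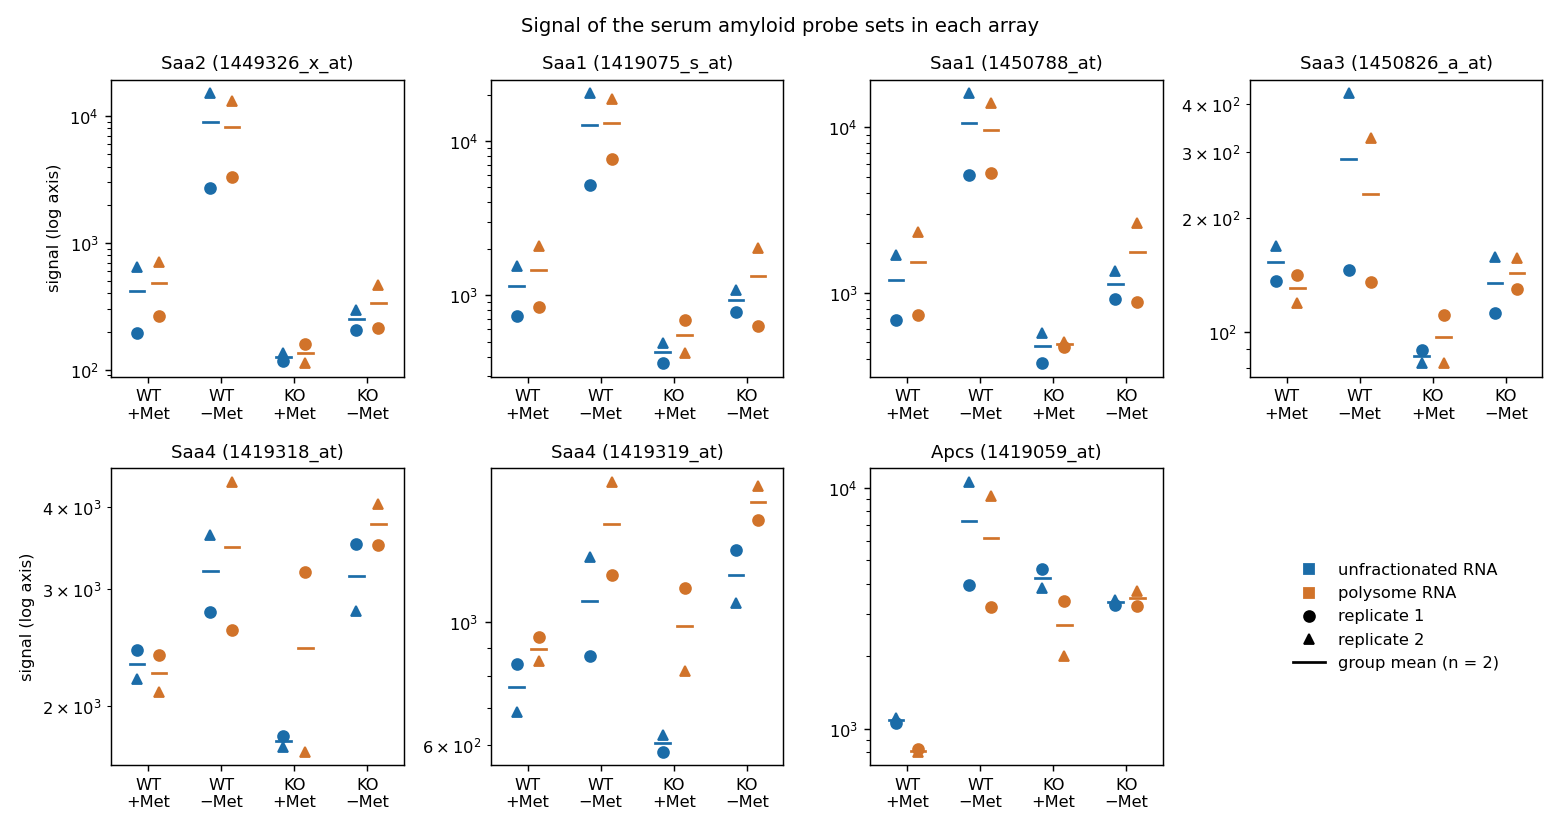
Signal of the 7 member probe sets in each of the 16 arrays (vertical log axis, signal), by genotype (WT, wild-type; KO, Gcn2 knockout) and medium (with or without methionine). Blue stands for unfractionated and orange for polysome RNA, circles for replicate 1, triangles for replicate 2, and bars for the mean of 2 arrays. Saa2 and both Saa1 probe sets are highest in wild-type livers without methionine, and Apcs is lowest in wild-type livers with methionine.

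Both Saa1 probe sets followed Saa2 over the arrays. Probe set 1450788_at gave 688 and 1693 in wild-type unfractionated RNA with methionine and 5152 and 16028 without, against 375 and 574 with methionine and 919.5 and 1345 without it in knockout livers. The wild-type arrays without methionine again lay above all others, and the knockout arrays without methionine fell within the range of the wild-type arrays with methionine. In polysome RNA the values were 733 and 2313 with and 5255 and 13919 without it in wild-type livers, and 472 and 505 with and 875 and 2625 without it in knockout livers. The wild-type differences between media were 3.05 ± 0.60 in unfractionated and 2.70 ± 0.60 in polysome RNA on the log2 scale, and 2.24 and 1.997 without pool 2 lacking methionine. The other probe set, 1419075_s_at, ran from 362 in a knockout array with methionine to 20411 in a wild-type array without it, and its wild-type differences were 3.24 ± 0.59 and 3.16 ± 0.59, or 2.25 and 2.51 without pool 2 lacking methionine. As a description over 16 arrays from 8 pools, Pearson's r on the log2 scale was 0.979 between Saa2 and 1450788_at and 0.9925 between Saa2 and 1419075_s_at, with probes that may bind each other's transcripts.

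Saa3, the member that macrophages also make, moved less than Saa1 and Saa2. Its unfractionated signal was 136 and 169 with methionine and 146 and 428 without in wild-type livers, and 89.7 and 82.7 with and 112 and 158 without in knockout livers. The wild-type arrays overlapped between media, and the difference of 0.67 ± 0.39 on the log2 scale was -0.05 without pool 2 lacking methionine. In polysome RNA it was 141 and 119.5 with and 136 and 327 without it in the wild-type, and 111 and 82.5 with and 129.6 and 157 without in knockout livers. The knockout arrays with methionine were below the wild-type arrays with methionine in both fractions.

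Saa4, the constitutive member, stayed within a narrow range, with the highest array 2.09 times the lowest for 1419318_at and 2.33 times for 1419319_at in unfractionated RNA. Probe set 1419318_at gave 2425 and 2195 with and 2774 and 3627 without methionine in unfractionated RNA of wild-type livers, and 1802 and 1734 with and 3506 and 2779.8 without in knockout livers. Arrays without methionine lay above those with it in both genotypes. Probe set 1419319_at had the same order, with 841 and 687 with and 869 and 1313 without it in the wild-type, and 582 and 625 with and 1354 and 1086 without in knockout livers. In polysome RNA 1419318_at gave 2383 and 2097 with and 2602 and 4358 without it in the wild-type, and 3188 and 1702 with and 3498 and 4036 without in knockout livers. The wild-type differences between media were 0.46 ± 0.26 and 0.48 ± 0.23 for the respective probe sets in unfractionated RNA on the log2 scale, smaller than the 0.81 ± 0.26 and 0.99 ± 0.23 of knockout livers. Without wild-type pool 2 lacking methionine these wild-type values were 0.26 and 0.19. In polysome RNA of all wild-type pools the differences were 0.59 ± 0.26 and 0.72 ± 0.23. They became 0.22 and 0.44 without that pool, and 0.25 and 0.38 with arrays scaled to their median, when the median of all probe sets fell by 0.27. The difference between the genotypes' values was not tested.

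Apcs had another pattern than the serum amyloid A genes. In unfractionated RNA of wild-type livers its signal was 1052 and 1113 with methionine, and 3958 and 10580.0 without. In knockout livers it was 4616 and 3853 with methionine, and 3269 and 3437 without. Wild-type livers with methionine thus had the lowest arrays, and the knockout arrays, from 3269 to 4616, lay above them and around the lower wild-type array without methionine. In polysome RNA the values were 822 and 801 with and 3194 and 9235 without it in the wild-type, and 3405 and 2004 with and 3245 and 3733 without in knockout livers. The wild-type mean without methionine was 6.72 times that with methionine in unfractionated RNA and 7.66 times in polysome RNA, or 2.56 ± 0.40 and 2.72 ± 0.40 on the log2 scale, and 1.86 and 1.96 without pool 2 lacking methionine. With methionine the knockout mean was 3.91 times the wild-type mean in unfractionated RNA (4235 ± 539 against 1082 ± 42.8, SD, n = 2 each) and 3.33 times in polysome RNA. These are descriptions, as they helped to choose the gene.

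**Figure D2:**
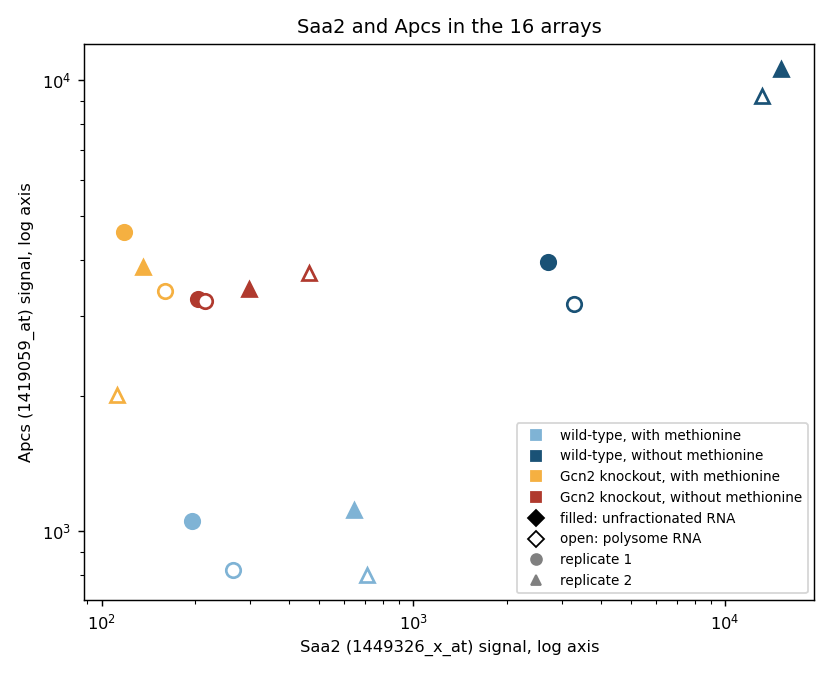
Signal of Saa2 (horizontal log axis) and of Apcs (vertical log axis) in the 16 arrays, coloured by genotype and medium, with filled symbols for unfractionated and open symbols for polysome RNA. Knockout livers with methionine combine low Saa2 (112 to 159.7) with Apcs of 2004 to 4616, while wild-type livers with methionine have Apcs of 801 to 1113.

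Set side by side, Saa2 and Apcs both had their highest group mean in wild-type livers without methionine but differed in where they were lowest, and r over the 16 arrays was 0.493. For Apcs this order rested on pool 2, since pool 1 (3958 in unfractionated and 3194 in polysome RNA) was below the mean of knockout livers with methionine in unfractionated RNA (4235) and without methionine in polysome RNA (3489). Saa2 was lowest in knockout livers with methionine and Apcs in wild-type livers with methionine. The genotype difference with methionine (knockout minus wild-type, unfractionated, log2 scale) was -1.39 ± 0.69 for Saa2, -1.19 ± 0.60 for Saa1 (1450788_at), -0.72 ± 0.39 for Saa3 and -0.38 ± 0.26 for Saa4 (1419318_at), against 1.95 ± 0.40 for Apcs. Leaving out replicate 2 of the wild-type unfractionated arrays with methionine moved the values of Saa2 and Saa1 to -0.57 and -0.55. Without methionine the genotype difference was -4.62 ± 0.69 for Saa2, -3.01 ± 0.60 for Saa1, -0.85 ± 0.39 for Saa3, -0.02 ± 0.26 for Saa4 and -0.95 ± 0.40 for Apcs. Without wild-type pool 2 lacking methionine the last set became -3.38, -2.20, -0.12, 0.17 and -0.24, so the value of Saa4 changed sign and those of Saa3 and Apcs came near 0.

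Arrays that did not overlap between groups were also counted by probe set. The probe sets are not independent, since those of Saa1 and Saa2 may bind each other's transcripts and those of Saa4 measure the same gene. In wild-type livers the arrays without methionine were above those with it for 6 of 7 member probe sets in unfractionated RNA, where 18.6% of all 27023 probe sets did so, and for 6 of 7 in polysome RNA, where 24.2% did. In knockout livers this held for 6 of 7 probe sets in unfractionated RNA (17.6% of all) and for 5 of 7 in polysome RNA (18.6% of all). Knockout arrays were below wild-type arrays for 4 of 7 probe sets without methionine in unfractionated RNA (16.3% of all) and for 3 of 7 in polysome RNA (24.1% of all). With methionine they were below for 6 of 7 in unfractionated RNA (16.6% of all) and for 4 of 7 in polysome RNA (16.8% of all). The wild-type and genotype counts follow from how the members were chosen, and nothing is read from them. In knockout livers Apcs was the exception, with arrays without methionine below those with it in unfractionated RNA.

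The effect of omitting methionine in knockout livers shows how these genes differed between media when Gcn2 was absent, and it was tested with limma. Its SE and p use the spread shared by all 8 groups, the wild-type ones included. For Saa2 the pools differed 5.58-fold in wild-type unfractionated RNA without methionine. In knockout unfractionated RNA they differed 1.15-fold with and 1.46-fold without it. In unfractionated RNA none of the 7 probe sets passed an adjusted p of 0.05, and 0% of all 27023 probe sets did, although 1420 had an unadjusted p under 0.05. The log2 differences (without minus with methionine) were 0.88 ± 0.69 for Saa2 (adjusted p = 0.989), 1.23 ± 0.60 for Saa1 1450788_at (0.945), 1.09 ± 0.59 for 1419075_s_at (0.954), 0.55 ± 0.39 for Saa3 (0.986), 0.81 ± 0.26 and 0.99 ± 0.23 for Saa4 (0.819 and 0.577) and -0.33 ± 0.40 for Apcs (0.997).

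In polysome RNA of knockout livers again none of the 7 passed, while 0.0888% of all probe sets did. Saa1 1450788_at had the largest difference, 1.60 ± 0.60 (adjusted p = 0.49), followed by Saa2 at 1.14 ± 0.69 (0.761), 1419075_s_at at 1.05 ± 0.59 (0.729), Saa4 at 0.75 ± 0.23 and 0.69 ± 0.26 (0.355 and 0.49), Saa3 at 0.51 ± 0.39 (0.829) and Apcs at 0.41 ± 0.40 (0.873). Single arrays moved these values. Without replicate 2 lacking methionine the difference was 0.82 for 1450788_at, 0.23 for 1419075_s_at and 0.62 for Saa2. Without replicate 2 with methionine it was 0.24 for Saa4 1419318_at and 0.0315 for Apcs. The methionine effect of the knockout polysome minus that of the unfractionated RNA passed for 0% of all probe sets (1070 at an unadjusted p under 0.05), with members between -0.24 ± 0.33 (Saa4 1419319_at) and 0.74 ± 0.57 (Apcs).

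**Figure D3:**
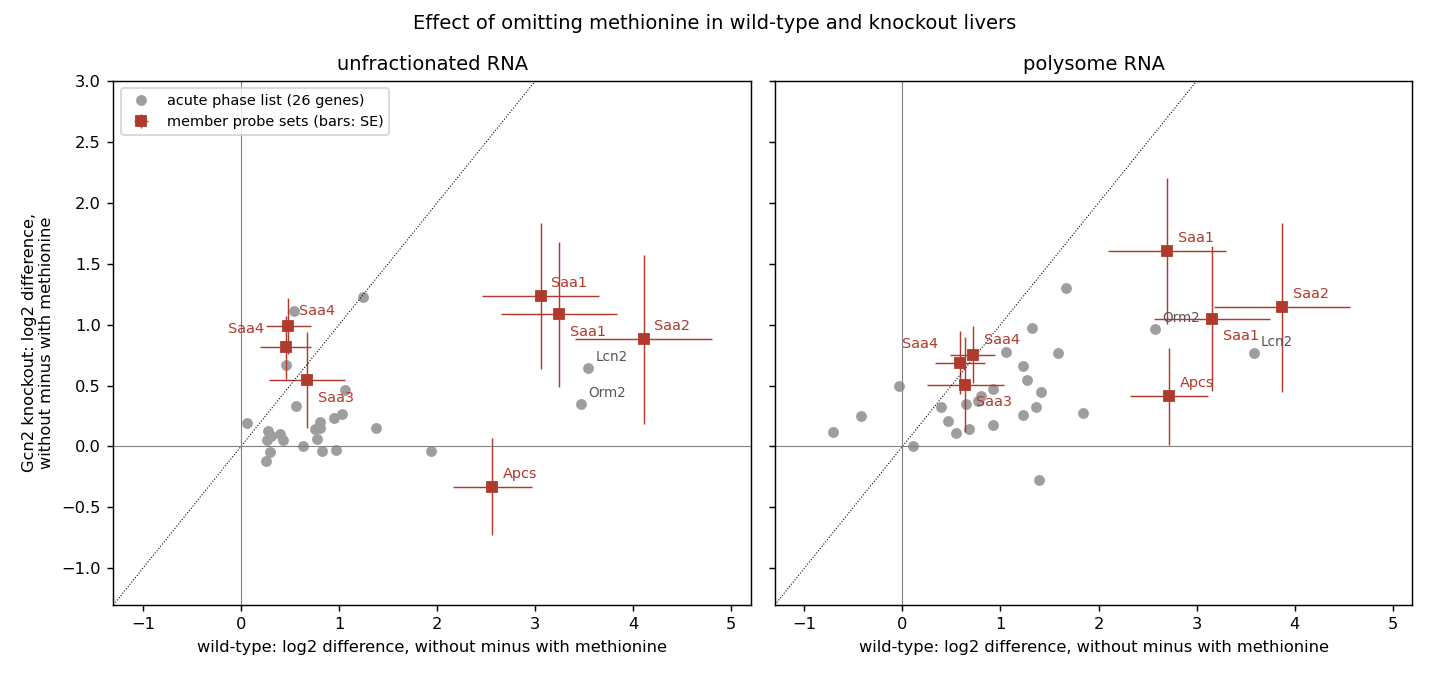
Log2 difference without minus with methionine in wild-type livers (horizontal axis) and in knockout livers (vertical axis), for unfractionated RNA (left) and polysome RNA (right). Red squares are the 7 member probe sets with SE of the fit in both directions, grey points the 26 tested genes of the acute phase list, and the dotted line marks equal differences. Saa1, Saa2, Apcs, Lcn2 and Orm2 lie to the right of the line, and both Saa4 probe sets lie to its left in unfractionated RNA.

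The share of each member's mRNA on polysomes was compared through the ratio of polysome to unfractionated signal in each of the 8 pools. This ratio is relative to all mRNAs of the array, since both fractions were scaled to the same mean. For Saa2 it lay between 0.827 and 1.55, a 1.88-fold range beside the 128.6-fold range of its level over the same pools, and it was above 1 in 6 of 8 pools. For wild-type livers it was 1.35 and 1.10 with methionine and 1.21 and 0.87 without, so the pools overlapped between media. Saa1 1450788_at ranged from 0.868 to 1.95, Saa3 from 0.708 to 1.23 and Apcs from 0.52 to 1.09, with Apcs below 1 in all pools but 1.

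The main fit did not pair the fractions of a pool, so its SEs also hold the spread between pools. Over all pools 21.4% of probe sets differed between polysome and unfractionated RNA in this fit (3186 higher and 2588 lower in polysomes, median 0.03 on the log2 scale), and 1 of 7 member probe sets did. This was Saa4 1419319_at, higher in polysome RNA by 0.45 ± 0.12 (adjusted p = 0.00884) and with a ratio between 1.12 and 1.98, above 1 in 8 of 8 pools. The other Saa4 probe set had a difference of 0.18 ± 0.13 (adjusted p = 0.396), with a ratio above 1 in 3 of 8 pools, so the probe sets of this gene disagree. The call of 1419319_at was lost with arrays scaled to their median (0.43 ± 0.15, adjusted p = 0.0586), and without knockout pool 1 with methionine (0.38, 0.0578) or knockout pool 2 without it (0.39, 0.0561). The differences of the others were 0.18 ± 0.35 for Saa2 (adjusted p = 0.792), 0.17 ± 0.30 and 0.29 ± 0.30 for Saa1 (0.762 and 0.565), -0.05 ± 0.20 for Saa3 (0.894) and -0.32 ± 0.20 for Apcs (0.294). With each pool as a fixed block, which pairs the fractions, Apcs was lower in polysome RNA by the same value with an SE of 0.07 (adjusted p = 0.00203). Without wild-type polysome replicate 2 lacking methionine the Apcs difference was -0.51. The polysome difference did not pass between genotypes (knockout minus wild-type) for any member, with values from 0.01 ± 0.40 for Apcs to 0.33 ± 0.39 for Saa3, nor for any other probe set (0% of all, 2114 at an unadjusted p under 0.05).

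**Figure D4:**
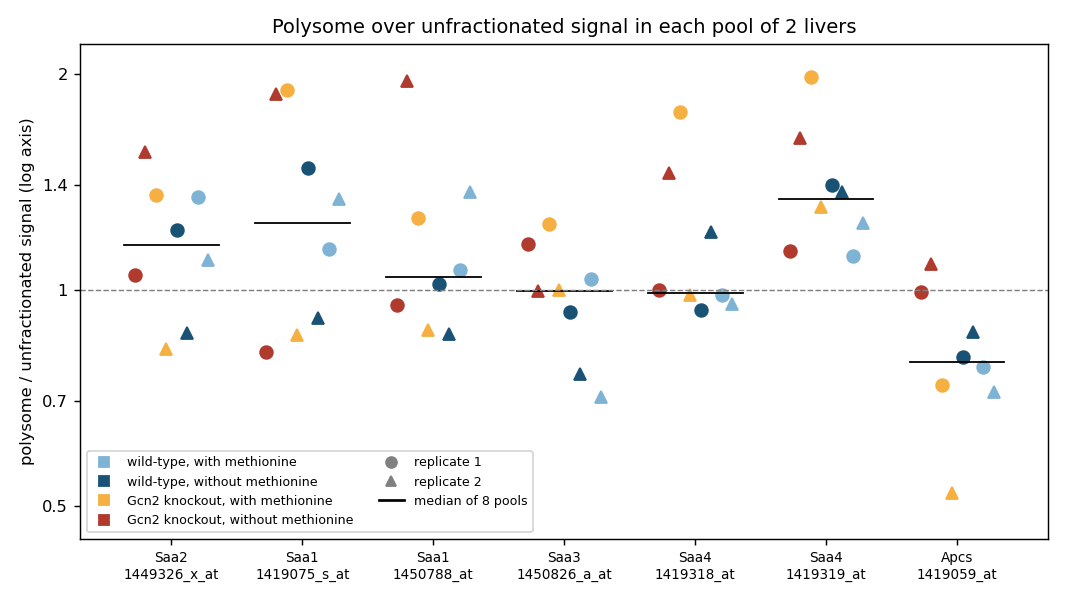
Ratio of polysome to unfractionated signal (vertical log axis) in each of the 8 pools for the 7 member probe sets, coloured by genotype and medium, with circles for replicate 1, triangles for replicate 2 and a bar for the median. Saa4 1419319_at is above 1 in all 8 pools and Apcs in 1 of 8.

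Other acute phase proteins of the liver were followed in a list of 28 genes without the members, of which 26 were tested, among them haptoglobin (Hp), the fibrinogen chains (Fga, Fgb, Fgg), lipocalin 2 (Lcn2) and the orosomucoids (Orm1, Orm2, Orm3). In wild-type livers all 26 had positive differences without methionine in unfractionated RNA, with a median of 0.76 against 0.0005 over all probe sets, and 23 in polysome RNA, with a median of 0.99 against 0.06. Without wild-type pool 2 lacking methionine 24 and 23 were positive, with medians of 0.51 and 0.71. In knockout livers 21 were positive in unfractionated RNA (median 0.15 against 0.01 over all) and none passed, where 0% of all probe sets did. In polysome RNA 25 were positive (median 0.36 against -0.0009) and 1 passed, where 0.0888% of all probe sets did. With arrays scaled to their median, 17 and 24 of the 26 were positive in knockout livers. The gene that passed was Crp, encoding C-reactive protein, a pentraxin like serum amyloid P but with a weak acute phase response in the mouse. Its polysome signal in knockout livers was 2227 and 2160.2 with methionine and 3683 and 3827 without, a difference of 0.77 ± 0.14 (adjusted p = 0.0439). This call was lost with median scaling (adjusted p = 0.683) and without wild-type pool 2 lacking methionine (0.108).

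Between fractions 8 of the 26 acute phase genes were lower in polysome RNA and none higher (median -0.26 against 0.03 over all). Of all 27023 probe sets 2588 were lower and 3186 higher, 21.4% in either direction. Among the 8 were Cp, which encodes ceruloplasmin (-0.77 ± 0.18, adjusted p = 0.00395), Hp (-0.51 ± 0.10, 0.000961), Itih4 (-0.47 ± 0.10, 0.00293) and Fga (-0.39 ± 0.09, 0.00268). With quantile normalization 2 were called lower and 4 higher (median -0.17 against 0.02 over all), while 2731 of all probe sets were lower and 2897 higher. With arrays scaled to their median 6 were called lower and 0 higher (median -0.275 against 0.01), while 2159 of all probe sets were lower and 1999 higher. The calls thus depend on the scaling, while the list median stayed below that of all probe sets. Among pentraxins other than the members 3 of 5 were tested, Crp, Nptx1 and Nptx2, and apart from Crp none passed in any tested comparison.

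The cytokine, receptor and transcription factor genes known to act upstream of Saa genes were given by a list of 27, of which 24 were tested. In knockout livers none passed between media in either fraction, with medians of 0.07 in unfractionated and -0.10 in polysome RNA. In wild-type livers 14 and 16 of the 24 were positive, with medians of 0.04 and 0.28 against 0.0005 and 0.06 over all probe sets. With median scaling the medians were -0.08 and -0.01, against -0.11 and -0.21 over all, and without pool 2 lacking methionine the polysome median was 0.09. These medians do not show single genes. Socs3 had a signal of 813 in unfractionated and 1096 in polysome RNA of that pool, and of at most 280 in all other arrays. Between fractions 6 of the 24 were higher and 4 lower in polysome RNA. Of all 27023 probe sets 3186 were higher and 2588 lower, 21.4% in either direction. Among the higher were Nr3c1, the glucocorticoid receptor (0.71 ± 0.09, adjusted p = 1.17e-05), Sp1 (0.70 ± 0.11, 0.000225) and Il6st, the shared signalling receptor of interleukin-6 (0.68 ± 0.13, 0.000714). Among the lower was Il1rap, a subunit of the interleukin-1 receptor (-0.53 ± 0.08, adjusted p = 0.000102). Of 14 genes for carriers and receptors of serum amyloid A, 12 were tested. In knockout livers none passed between media (medians 0.21 and 0.11). Between fractions 3 of the 12 passed, where 21.4% of all probe sets did. Lcat, a lipoprotein enzyme, was higher in polysome RNA (0.25 ± 0.08, adjusted p = 0.0294), and Pltp, the phospholipid transfer protein (-0.64 ± 0.11, 0.000267), and Apoe (-0.24 ± 0.08, 0.0323) were lower. With arrays scaled to their median 0 were called higher and 1 lower, so the call of Lcat was lost. Of all probe sets 1999 were higher and 2159 lower with this scaling.

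The genes most like Saa2 over the 16 arrays, by Pearson's r on the log2 scale among 13465 tested genes, were Lrg1 (0.959), Lcn2 (0.946), Serpina10 (0.942), Tspan4 (0.898) and Fgl1 (0.895). Lrg1 encodes a secreted acute phase glycoprotein, Lcn2 a siderophore-binding protein and Fgl1 a fibrinogen-like protein of hepatocytes. Lcn2 gave 74.5 and 85.2 with and 243 and 4763 without methionine in unfractionated RNA of wild-type livers, and 34.6 and 72.4 with and 92.2 and 85.1 without in knockout livers. Of the pools without methionine it was therefore replicate 2 of the wild-type that stood highest, as for Saa2. Ranked on deviations from group means, which compare the replicates of a group alone, the nearest genes were Orm1 (0.940), Rbm45 (0.928), Becn1 (0.926), Rad51b (0.924) and Cxcl14 (0.922). The genes most like Apcs were Fga (0.855), Slc16a1 (0.842), Pkhd1 (0.839), Gas6 (0.835) and Rdh11 (0.834). On deviations they were Orm2 (0.978), Prtn3 (0.966), Scgn (0.961), Socs3 (0.957) and Itgal (0.947). Orm2 had a signal of 306 and 5722 in the wild-type unfractionated arrays without methionine and of at most 188 in all knockout arrays. These correlations are over arrays that share pools and scaling, and the deviations rest on 8 pairs. For Apcs the wild-type pools without methionine differed most, 2.67-fold in unfractionated and 2.89-fold in polysome RNA. The pools of any other group differed at most 1.70-fold, so these deviations rest largely on pool 2. The correlations were not computed without it.

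Markers of other cell types moved with some of these groups. The summed signal of 8 Kupffer cell markers in unfractionated RNA was 1851 to 1904 with and 2037 to 2048 without methionine in wild-type livers. In knockout livers it was 955 to 1046 with and 1329 to 1431 without, lower in all knockout arrays of this fraction. In polysome RNA the sum was 791 to 1001 with and 835 to 1152 without methionine in wild-type livers. It was 592 to 664 with and 873 to 961 without in knockout livers, so the genotypes overlapped without methionine. The sum of 5 neutrophil markers was 73.5 to 74.7 with and 163 to 191 without methionine in unfractionated RNA of wild-type livers, and 61.2 to 182 with and 62.9 to 144 without in knockout livers. In 1 knockout polysome array with methionine it reached 531. S100a9, Mpo, Elane and Cxcr2 did not reach a signal of 80 in any array, and S100a8 did in 2. The sum of 2 monocyte markers, Lyz2 and Ccr2, was 200.1 to 309 and 215 to 229 in wild-type unfractionated RNA with and without methionine, and 109 to 167 and 206 to 219 in knockout livers. Hepatocyte marker sums ran from 61776 to 84762 over all arrays. Sinusoidal endothelial sums ran from 427 to 531 and stellate cell sums from 306 to 423 in all unfractionated arrays, and T cell and red cell markers did not reach 80 in any array. The sum of 3 B and plasma cell markers was 54.9 to 74.0 with and 84.7 to 182 without methionine in unfractionated RNA of wild-type livers. In knockout livers this sum was 38.8 to 65.8 with and 54.8 to 83.0 without. Adipocyte sums (Adipoq and Fabp4) ran from 153 to 229 in unfractionated RNA, and Adipoq did not reach 80. Between fractions, 6 of the 8 Kupffer cell markers were lower in polysome RNA and none higher (median -0.78 against 0.03 over all). Of all 27023 probe sets 2588 were lower and 3186 higher. The part of these cells in the differences of the members was not tested.

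The authors' deposited table gives z ratios, in which the difference of mean z scores of a pair of groups is divided by the SD of such differences over 15709 probe sets, without replicate error. In the authors' deposited table the z ratio without minus with methionine in wild-type unfractionated RNA was 9.78 for Saa2, 7.63 and 7.19 for Saa1, 6.02 for Apcs, 1.72 for Saa3 and 1.06 and 1.15 for Saa4. Saa2 ranked 6th from the top there, and Apcs 31st. In knockout unfractionated RNA the authors' deposited table has 2.27 for Saa2, 2.64 and 2.98 for Saa1, 1.49 for Saa3, 1.95 and 2.39 for Saa4 and -0.755 for Apcs. For knockout minus wild-type with methionine in unfractionated RNA it has 3.97 for Apcs, which ranked 52nd from the top, and -2.985 for Saa2.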

How the data were processed

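RNA from perfused mouse livers was hybridised to 16 Affymetrix arrays, 2 in each of 8 groups, and each array measured a pool of 2 livers after 1 cycle of biotin labelling, per the labels' protocols. The deposited value table holds linear signal intensity per probe set. Tested on its values, the mean after trimming 2% at each end was 150 in every array. The algorithm behind the signals is not given in the sources. A second table deposited by the authors holds z scores and z ratios, a score without replicate error, for the probe sets that reached 80 on any array, per the file headers and footer. No column of per-sample values was without a sample (0).

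Probe sets were named through the platform annotation, and 18193 genes had a probe set with a single symbol. Of 45101 probe sets, 64 controls and the dimmest 40% by mean were left out, which left 27023. Log2(signal + 16) was fitted in limma 3.58.1 (R 4.3.3) with 8 group means, 8 residual degrees of freedom and a variance trend. Tests were two-sided, adjusted by Benjamini-Hochberg over all probe sets, with a threshold of 0.05. The fit was checked on simulated data. With 2 arrays a group, precision rests on the spread shared by all groups.

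Same-numbered unfractionated and polysome arrays deviated together, with correlations of 0.152, 0.127, 0.19 and 0.112, and the footer of the second deposited table lists them in succession, so the numbers were taken to pair the fractions. The labels do not state this, and the main fit did not use the pairing.

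Genes named are all members, up to 4 genes of each list (those that passed, by p, or otherwise the brightest), and the 5 genes most like Saa2 and Apcs by correlation. The members and lists were chosen with earlier results of these data known. Some list genes were too dim or are not analysed here. Alternatives covered scaling, pseudocount, filter, variance model, blocks, and leaving out each array. Leaving out each pool, the list alternatives and the naming of Lcn2, Orm2 and Socs3 values beside the members were chosen after seeing the data. Promoters come from RefSeq (GRCm38.p6) and were aligned with Biopython 1.88.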

Additional observations from a re-analysis of the deposited data

Results flagged for a closer look

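Apcs, which encodes serum amyloid P, had differences of opposite sign between media in the genotypes in unfractionated RNA. Both wild-type arrays without methionine were above both with it (2.56 ± 0.40 on the log2 scale), and both knockout arrays without methionine were below both with it (-0.33 ± 0.40, adjusted p = 0.997 in limma). The knockout difference minus the wild-type difference was -2.89 ± 0.57, and it was -2.19 without wild-type pool 2 lacking methionine. Read the other way, the genotype difference (knockout minus wild-type) was 1.95 ± 0.40 with methionine and -0.95 ± 0.40 without, again a change of -2.89. This difference was not tested, as Apcs was chosen with the wild-type and genotype results known. In polysome RNA the knockout difference was 0.41 ± 0.40 (adjusted p = 0.873), of the same sign as the wild-type difference of 2.72 ± 0.40, and the knockout arrays overlapped between media.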

How the results depend on the processing

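The tested member values were compared with 37 other settings. Of 1240 comparisons, 1154 kept their direction and side of the threshold, 80 changed sign, 3 lost and 3 gained a call. With an adjusted p above 0.05 in most settings, this says little of stability.

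For polysome against unfractionated RNA the number of member probe sets called was 1. It was 0 with arrays scaled to their median, 0 with 1 probe set a gene, 0 with the mean of a gene's probe sets and 2 with pool as a fixed block, and it ran from 0 to 2 when arrays or pools were left out.

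Whether the replicate number pairs the media is not settled (correlations of 0.153 and 0 in knockout and -0.036 and -0.019 in wild-type unfractionated and polysome RNA). The 0.153 of knockout unfractionated RNA lay within the range between fractions (0.112 to 0.19), and the other values were near or below 0. With the replicate number as a block, 1 member probe set was called between media in knockout polysome RNA. This was Saa1 1450788_at (1.60 ± 0.25, adjusted p = 0.0268, against 0.49). The adjusted p of Crp was 0.098 with this block. Over all probe sets this block moved the calls in knockout unfractionated RNA from 0 to 3 higher and 2 lower. In knockout polysome RNA the main fit, without the block, called 18 probe sets higher and 6 lower (0.0888% of all). Scaling to the median left 1 and 0. The share of all probe sets called with the block in polysome RNA is not given here, so nothing is read from the call of 1450788_at. No other member's call changed with a block, apart from Apcs above.

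Some differences near 0 changed sign. Between genotypes, the polysome difference under quantile normalization was -0.0672 for Saa1 1419075_s_at, -0.012 for 1450788_at and -0.0724 for Saa2. The knockout methionine effect of polysome minus unfractionated RNA for 1419075_s_at was 0.0222 under quantile normalization and 0.17 as the mean of the Saa1 probe sets. When arrays or pools were left out, the polysome difference between genotypes ran from -0.37 to 0.40 for Apcs, -0.43 to 0.56 for 1419075_s_at, -0.24 to 0.58 for 1450788_at, -0.57 to 0.67 for Saa2 and -0.0382 to 0.69 for Saa3. The polysome difference over all pools ran from -0.0313 to 0.38 for 1450788_at, -0.13 to 0.49 for Saa2 and -0.24 to 0.13 for Saa3. The knockout methionine effect of polysome minus unfractionated RNA ran from -0.86 to 0.78 for 1419075_s_at, -0.41 to 1.16 for 1450788_at, -0.26 to 0.79 for Saa2, -0.26 to 0.18 for Saa3, -0.58 to 0.32 for Saa4 1419318_at and -0.53 to 0.0601 for 1419319_at. The cause was not tested.

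Scaling to the median moved the median of all probe sets by -0.27 for the wild-type polysome and -0.11 for the wild-type unfractionated methionine effect. Among the genes nearest to Saa2 over the arrays, Lrg1, Lcn2 and Fgl1 kept ranks 1, 2 and 5 with it, and Serpina10 and Tspan4 moved to ranks 14 and 19.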
